A study of Mus musculus with 48 samples.

Results

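The comparison described here is how the difference between BACHD-ΔN17 and wild-type cortex changed from 7 to 11 months of age: the genotype difference at 11 months minus the genotype difference at 7 months, an interaction that asks which changes still grew, levelled off or receded after 7 months. It used 16 of the 48 arrays of the series, 4 in each of 4 groups: BACHD-ΔN17 at 7 months, wild-type at 7 months, BACHD-ΔN17 at 11 months and wild-type at 11 months. The BACHD-ΔN17 transgene is a human genomic huntingtin construct with an expanded glutamine stretch from which the N17 segment at the start of the protein was removed. The mouse gene is still present in both genotypes, all mice were FvB/NJ, and no BACHD mice with intact N17 are among the arrays used here, so the effect of the deletion itself is not measured. Each group held 2 males and 2 females, 1 cortex per mouse, and RNA of each cortex was hybridised to a 1-colour Illumina MouseRef-8 bead array. The 8 cortical arrays of mice aged 2 months entered the same fit and add to its estimate of the spread.

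In Huntington's disease, an expanded glutamine stretch in huntingtin is followed by loss of transcripts that mature neurons need, first in the projection neurons of the striatum and also in cortex. Hox genes, which set position along the body axis in the embryo, and many other developmental transcription factors are kept silent in adult forebrain, largely by Polycomb complexes, which modify histones at CG-rich promoters. Their transcripts are therefore scarce in normal adult cortex.

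The 16 arrays detected 12477 to 14131 probes each. At 11 months, 4 of the 8 arrays (2 BACHD-ΔN17, 2 wild-type) were dim: their 95th percentile of raw intensity was 2597 to 3082, against 4046 to 5495 on the other 12 arrays. No 7-month array was among them, so results are also given without them. The sex labels matched Xist, the RNA made from the inactive X chromosome: all female arrays lay at 8.97 or above and all male arrays at 5.93 or below (normalized log2 intensity, the scale of all levels that follow). Htt, mouse huntingtin, did not pass in the interaction (-0.20, SE 0.46, limma adjusted p = 0.948), and the labels do not say whether its probe reads the human transcript. Of the defining markers of cortical excitatory neurons, Neurod6 was near the background on all arrays, while Slc17a7, the vesicular glutamate transporter, lay at 13.16 or above and Tbr1, a transcription factor of deep-layer neurons, at 10.83 to 11.34 in the BACHD-ΔN17 arrays and 11.24 to 11.64 in the wild-type arrays.

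For a small set of genes the genotype difference changed after 7 months. Of 11047 features tested, 12 had a genotype difference that became more positive (0.109%) and 6 one that became more negative (0.0543%) by limma at an adjusted p under 0.05, and 844 had an unadjusted p under 0.05. All 10 named genes among the 12 encode transcription factors of the embryo: Hoxc6, Hoxb2, Hoxd8, Hoxb5, Hoxd9 and Hoxa7 of the Hox clusters, Barx1, Shox2 and Pou4f1, which are homeobox genes outside them, and Tal1. The 5 named genes that became more negative, Tyro3, Dkkl1, Lingo1, Rgs4 and Ngef, include a receptor kinase, a membrane protein and signalling regulators of neurons. The other 3 features are probes with no gene name in the platform annotation. Of the 18, 6 (Hoxa7, Hoxb2, Hoxd8, Hoxd9, ILMN_3118071 and ILMN_1220244) met the filter, detection on at least 4 cortical arrays, only through the BACHD-ΔN17 arrays at 11 months where they are high, so their calls follow in part from the filter and their values are given as a description.

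The 18 were chosen by the interaction of the same arrays, so the counts in the next sentences describe them and are not further support. In 17 of the 18 features the BACHD-ΔN17 level moved more between the ages than the wild-type level did. The BACHD-ΔN17 arrays at 11 months did not overlap those at 7 months for any of the 18 (5.68% of all features do not overlap), and they did not overlap the wild-type arrays at 11 months for any either (14.9% of all features). Between 7 and 11 months within BACHD-ΔN17 cortex, 17 of the 18 passed by limma (48 of 11047 over all features, 0.435%, and 1114 at an unadjusted p under 0.05), and within wild-type cortex 0 of the 18 passed (0 of 11047 over all features, 516 at an unadjusted p under 0.05). At 2 months 0 of the 18 differed between genotypes (0 of 11047 by limma, 219 at an unadjusted p under 0.05). At 7 months 10 of the 18 already differed, against a background of 0.498% of all features higher and 1.28% lower. All 18 differed at 11 months, where the background was 6.97% higher and 9.16% lower.

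Of the 10 developmental factors, 6 were already higher at 7 months and rose further. Hoxc6, a Hox gene of the thoracic region, read 7.07, 7.04, 6.47 and 6.85 in BACHD-ΔN17 cortex and 5.20, 4.79, 4.90 and 5.12 in wild-type cortex at 7 months. At 11 months it read 9.74, 8.78, 8.46 and 9.48 in BACHD-ΔN17 and 4.83, 4.90, 4.95 and 5.00 in wild-type cortex. The wild-type arrays were all below detection at both ages, and each BACHD-ΔN17 array at 11 months lay above each at 7 months. The level in BACHD-ΔN17 cortex was 4.78-fold higher at 11 than at 7 months, and the genotype difference was at least 2.12-fold at 7 months and at least 8.62-fold at 11 months. The interaction was 2.34 on the log2 scale (SE 0.31, limma adjusted p = 0.000227). "At least" marks a fold against a group below detection on all its arrays, computed against the detection floor of each array (5.68 to 6.17). There the interaction rests on fitted values below that floor and is not a bound. Where only some arrays of a group were detected, a fold carries no "at least" and can rest partly on readings below the floor.

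Barx1, a homeobox gene of the stomach and the face, followed the same course. It read 7.21, 7.46, 6.96 and 7.22 in BACHD-ΔN17 cortex at 7 months and 9.55, 9.01, 9.08 and 9.69 at 11 months, while the 8 wild-type arrays lay between 4.77 and 5.32, all below detection. The BACHD-ΔN17 level was thus 4.34-fold higher at 11 than at 7 months, and the genotype difference was at least 2.71-fold at 7 and at least 10.0-fold at 11 months (interaction 2.29, SE 0.26, limma adjusted p = 1.87e-05). A further probe of Barx1 gave 1.75 (limma adjusted p = 0.000674 among all probes).

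Shox2, a homeobox gene of limb and heart pacemaker development, read 7.00, 7.56, 6.78 and 7.10 in BACHD-ΔN17 cortex at 7 months and 10.04, 8.83, 8.71 and 9.48 at 11 months. Its wild-type arrays lay between 5.01 and 6.35, with 3 of 8 detected. The genotype difference was 2.92-fold at 7 months and 13.2-fold at 11 months (interaction 2.18, SE 0.40, limma adjusted p = 0.0229), and another detected probe gave 2.18. Both folds use wild-type means (5.56 at 7 and 5.54 at 11 months) below the detection floors and are not bounds. A further probe of Shox2 was detected on too few arrays to be tested. Tal1, a helix-loop-helix factor of blood stem cells, reached 8.58 to 8.78 in BACHD-ΔN17 cortex at 11 months, against 6.81 to 7.66 at 7 months, a 2.61-fold difference between the ages with no overlap. Hoxb5 reached 8.49 to 9.31 at 11 months, against 6.85 to 7.69 at 7 months, 3.09-fold. Both were already higher than wild-type at 7 months, by at least 2.94-fold for Tal1 and at least 2.91-fold for Hoxb5. At 11 months the differences were 10.7-fold for Hoxb5 and at least 6.53-fold for Tal1. The 10.7-fold rests on a wild-type mean of 5.52, below the detection floors, with 1 of 4 arrays detected. It is thus not the same measure as the 7-month bound. The interactions were 1.36 (SE 0.27) for Tal1 and 1.64 (SE 0.34) for Hoxb5, with limma adjusted p of 0.0306 and 0.0386.

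Pou4f1, a POU homeobox gene of sensory neurons, was the sixth. It read 8.04, 8.70, 8.22 and 8.16 in BACHD-ΔN17 cortex at 7 months and 9.92, 9.39, 9.30 and 9.29 at 11 months, and the 8 wild-type arrays lay between 4.72 and 5.22, below detection. The BACHD-ΔN17 level rose 2.29-fold between the ages, and the genotype difference was at least 5.67-fold at 7 and at least 11.1-fold at 11 months (interaction 1.30, SE 0.26, limma adjusted p = 0.0306). A further probe of Pou4f1 was detected on too few arrays to be tested, so these values rest on a single probe.

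The other 4 named genes had no genotype difference that passed at 7 months. Hoxd8 lay at 4.98 to 5.45 in BACHD-ΔN17 cortex at 7 months, below detection on every array, and read 7.91, 6.45, 6.28 and 7.09 at 11 months, detected on every array. The wild-type arrays lay between 4.64 and 4.90 at both ages, so the 11-month difference was at least 1.90-fold. Hoxd9 and Hoxa7 showed the same pattern, undetected on all 4 BACHD-ΔN17 arrays at 7 months and detected on all 4 at 11 months, where the difference from wild-type was at least 1.58-fold for Hoxd9 and at least 1.37-fold for Hoxa7. Hoxb2, a gene of the hindbrain, was detected on 1 BACHD-ΔN17 and 1 wild-type array at 7 months, and on 4 BACHD-ΔN17 and 0 wild-type arrays at 11 months (7.70, 6.58, 7.40 and 7.32 in BACHD-ΔN17, against 5.73, 4.78, 5.49 and 5.09 in wild-type). These 4 are among the features that met the filter only through these arrays.

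The unnamed probe ILMN_3118071 was undetected in BACHD-ΔN17 cortex at 7 months (4.90, 5.34, 5.20 and 4.89) and detected on every BACHD-ΔN17 array at 11 months (8.61, 8.12, 7.89 and 8.16), while wild-type arrays stayed at 4.77 to 5.22. The 11-month difference from wild-type was at least 4.56-fold. Its fitted interaction of 3.09 rests on readings below the floor in the other 3 groups and was 1.24 in the authors' deposited log2 values. A second unnamed probe, ILMN_1220244, was likewise undetected at 7 months and reached 5.95 to 7.80 in BACHD-ΔN17 cortex at 11 months, at least 1.63-fold higher than wild-type.

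**Figure D1:**
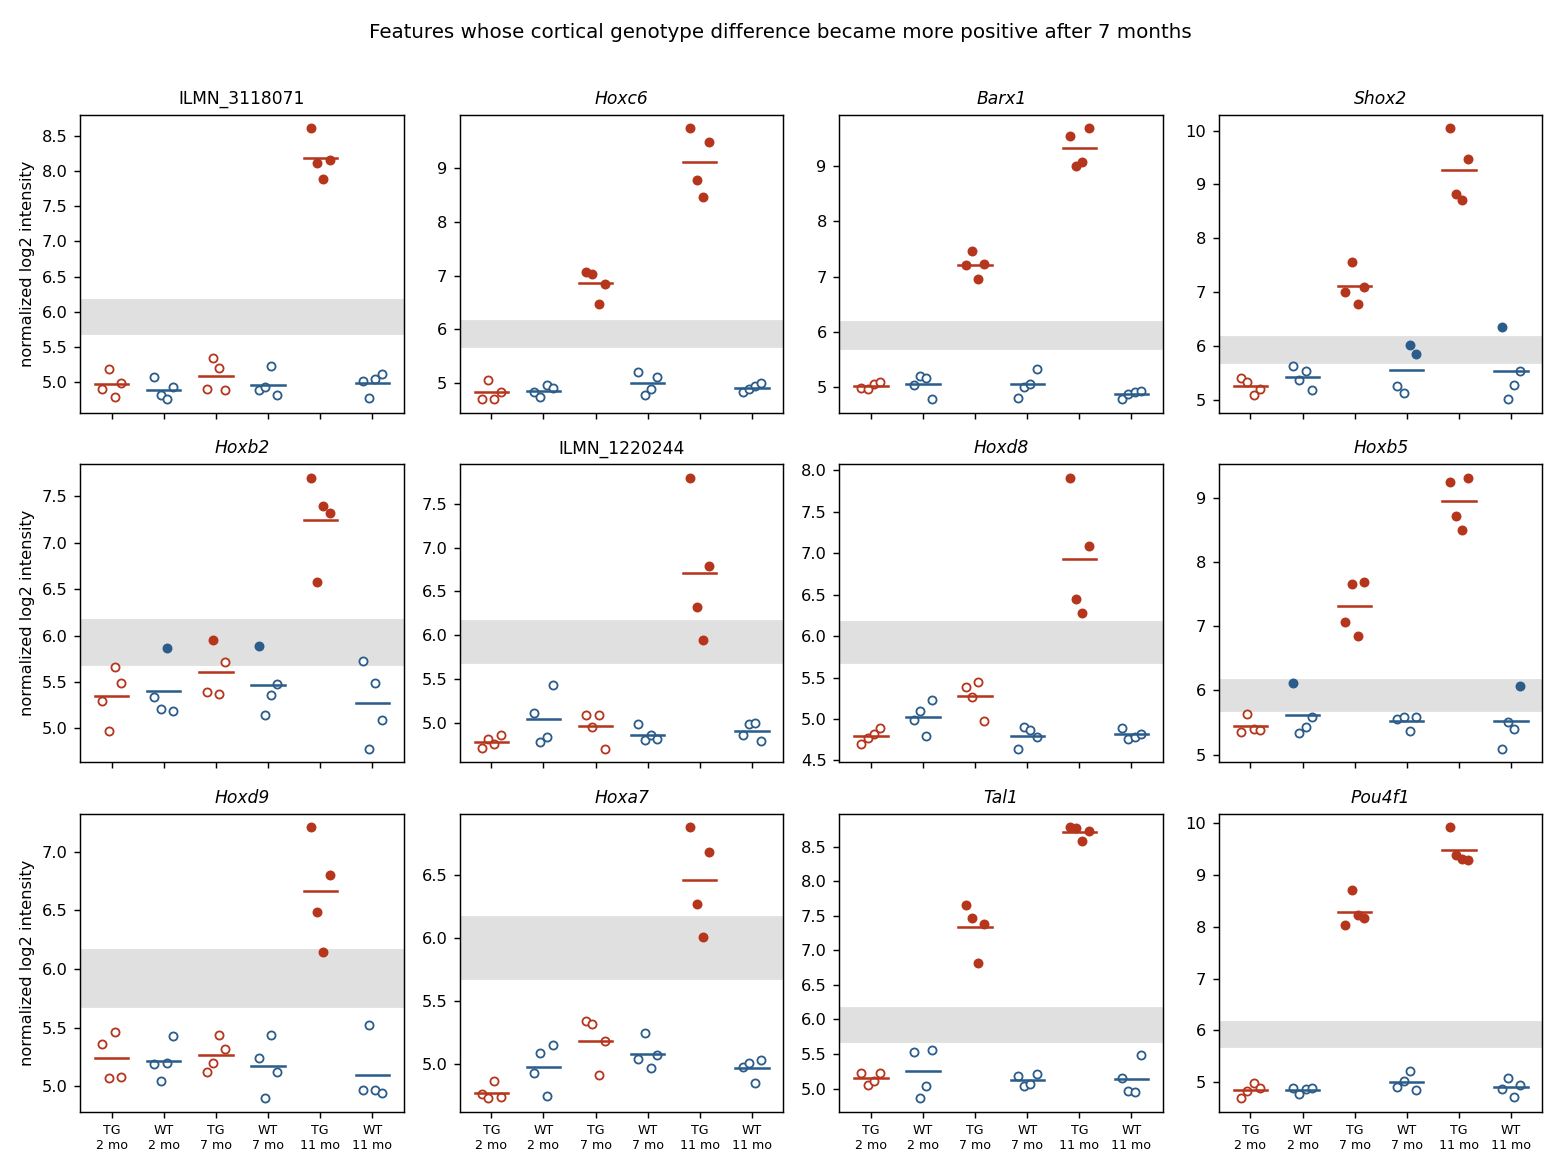
Normalized log2 intensity (vertical axis) of the 12 features whose genotype difference became more positive, on each BACHD-ΔN17 (TG, red) and wild-type (WT, blue) cortical array at 2, 7 and 11 months. Filled points were detected, open points were not, lines are group means (n = 4), and the grey band is the range of detection floors (5.68 to 6.17). In each panel the 4 BACHD-ΔN17 points at 11 months lie above all other points.

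Over the Hox clusters as a whole the arrays held probes for 38 genes. At 11 months 7 were detected on all 4 BACHD-ΔN17 arrays, against 3 on all 4 BACHD-ΔN17 arrays at 7 months. On at least 1 array, 17 were detected in BACHD-ΔN17 and 5 in wild-type cortex at 11 months. At 7 months these counts were 10 in BACHD-ΔN17 and 6 in wild-type cortex. Detection is a p under 0.05 on each array, so an absent transcript can be detected on 1 array by chance. Counts on at least 1 array are therefore not read as expression. Hoxa13 was detected on all 16 arrays without a genotype difference that passed, at a mean of 6.58 in BACHD-ΔN17 and 6.77 in wild-type cortex at 7 months and 6.89 in BACHD-ΔN17 and 7.26 in wild-type cortex at 11 months. The 6 genes that passed lie in all 4 clusters: Hoxa7, Hoxb2 and Hoxb5, Hoxc6, and Hoxd8 and Hoxd9. Hoxc9 was detected on 3 BACHD-ΔN17 arrays and 1 wild-type array at 11 months (7.57, 5.60, 6.31 and 7.32 in BACHD-ΔN17, against 6.47, 4.93, 4.79 and 4.93 in wild-type). It passed at 11 months (limma adjusted p = 0.0047) but not in the interaction (limma adjusted p = 0.586). On all 16 arrays 20 of the 38 were undetected. Of the 38, 11 entered the test. Hoxa7, Hoxb2, Hoxd8 and Hoxd9 did so only through the BACHD-ΔN17 arrays at 11 months, so a count among the tested Hox genes says nothing about the family.

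The promoter windows of these genes differed widely in CG content. RefSeq windows of 250 bases before to 50 bases after the gene's start (GRCm38.p6) were matched for 7 of the 10 named genes that rose, 8 windows in all. They held 6 to 57 CG dinucleotides, with a median of 15.5. The 6 windows of the 5 named genes that fell held 4 to 35, with a median of 22.5. The median was 19 over the windows of all tested genes and 7 over all 32851 windows, of which 94.6% hold at least 1 CG (counted as the letters CG, which read the same on both strands). The 2 most CG-rich windows of the set, the Hox window with the fewest, and a neuronal gene that fell are shown in the direction of transcription, with CG in capitals: Barx1 (chr13:48662786-48663085, plus strand, 50 CG), Pou4f1 (chr14:104467950-104468249, minus strand, 57 CG), Hoxd8 (chr2:74704365-74704664, plus strand, 6 CG) and Rgs4 (chr1:169747593-169747892, minus strand, 13 CG).
Barx1: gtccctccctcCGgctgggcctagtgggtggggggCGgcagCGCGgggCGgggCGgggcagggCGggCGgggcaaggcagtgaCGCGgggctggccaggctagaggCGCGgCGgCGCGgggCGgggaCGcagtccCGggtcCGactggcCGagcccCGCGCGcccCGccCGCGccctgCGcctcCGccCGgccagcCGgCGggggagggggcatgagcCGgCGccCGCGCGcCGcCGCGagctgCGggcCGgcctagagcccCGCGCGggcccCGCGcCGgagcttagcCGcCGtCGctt
Pou4f1: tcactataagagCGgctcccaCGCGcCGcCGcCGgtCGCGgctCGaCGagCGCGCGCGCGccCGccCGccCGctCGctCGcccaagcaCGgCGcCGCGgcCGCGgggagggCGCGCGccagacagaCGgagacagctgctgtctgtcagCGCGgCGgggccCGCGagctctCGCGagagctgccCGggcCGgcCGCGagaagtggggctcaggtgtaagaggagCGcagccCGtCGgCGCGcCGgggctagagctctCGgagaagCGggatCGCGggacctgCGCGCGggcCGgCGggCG
Hoxd8: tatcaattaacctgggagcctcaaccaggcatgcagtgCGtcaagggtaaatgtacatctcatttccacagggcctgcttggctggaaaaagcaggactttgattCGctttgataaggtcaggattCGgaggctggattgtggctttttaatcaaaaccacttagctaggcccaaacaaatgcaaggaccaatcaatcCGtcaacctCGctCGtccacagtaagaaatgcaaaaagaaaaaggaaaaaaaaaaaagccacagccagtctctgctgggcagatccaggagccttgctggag
Rgs4: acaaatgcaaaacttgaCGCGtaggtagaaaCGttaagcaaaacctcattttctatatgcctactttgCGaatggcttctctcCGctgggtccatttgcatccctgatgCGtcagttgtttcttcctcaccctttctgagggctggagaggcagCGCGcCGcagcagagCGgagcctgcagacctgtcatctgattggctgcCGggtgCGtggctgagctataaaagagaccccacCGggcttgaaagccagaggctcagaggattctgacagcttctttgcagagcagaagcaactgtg

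Only 0.9% of all windows held as many CG as that of Barx1 and 0.2% as many as that of Pou4f1, while 56.4% held as many as that of Hoxd8. These are counts of letters in a window of fixed length and show no site or cause.

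The features whose genotype difference became more negative were all well expressed neuronal or signalling genes except 1 unnamed probe. Tyro3, a receptor tyrosine kinase that binds Gas6 and protein S, read 8.85, 8.66, 8.71 and 9.11 in BACHD-ΔN17 cortex and 9.25, 9.34, 9.58 and 9.35 in wild-type cortex at 7 months. At 11 months it read 7.68, 8.35, 8.20 and 8.09 in BACHD-ΔN17 and 9.66, 9.86, 9.75 and 9.81 in wild-type cortex. The groups did not overlap at either age (at 11 months 14.9% of all features did not overlap). The BACHD-ΔN17 mean was 0.75 lower at 11 than at 7 months and the wild-type mean 0.39 higher, a difference that did not pass. Tyro3 was 1.46-fold lower than wild-type at 7 months and 3.23-fold lower at 11 months (interaction -1.14, SE 0.19, limma adjusted p = 0.00554). In bulk tissue such as this, fewer cells of a type and less RNA per cell cannot be told apart.

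Lingo1, a membrane protein that limits myelination and axon growth, read 9.94, 10.12, 10.08 and 10.36 in BACHD-ΔN17 and 10.98, 10.96, 11.01 and 11.19 in wild-type cortex at 7 months. The 11-month arrays read 9.37, 9.83, 9.70 and 9.31 in BACHD-ΔN17 and 11.27, 11.14, 11.14 and 11.27 in wild-type cortex. The difference was 1.88-fold at 7 months and 3.14-fold at 11 months (interaction -0.74, SE 0.15, limma adjusted p = 0.0306).

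Rgs4, which shortens G protein signals and is abundant in cortical neurons, lay at 13.48 to 13.59 in BACHD-ΔN17 and 13.86 to 14.31 in wild-type cortex at 7 months, and at 12.67 to 13.08 in BACHD-ΔN17 and 13.85 to 14.10 in wild-type cortex at 11 months. It was 1.44-fold lower than wild-type at 7 months and 2.26-fold lower at 11 months (interaction -0.65, SE 0.12, limma adjusted p = 0.0305). Ngef, a guanine nucleotide exchange factor that acts in neurons below Eph receptors, lay at 11.53 to 11.74 in BACHD-ΔN17 and 11.85 to 12.20 in wild-type cortex at 7 months, and at 10.95 to 11.25 in BACHD-ΔN17 and 12.00 to 12.21 in wild-type cortex at 11 months. It was 1.32-fold lower at 7 and 2.02-fold lower at 11 months (interaction -0.61, SE 0.12, limma adjusted p = 0.0306). For Lingo1, Rgs4 and Ngef alike the groups did not overlap at either age. At 11 months 14.9% of all features did not overlap, and the share at 7 months was not computed. The genes were chosen by the interaction of the same arrays, so this describes them. These genes had no genotype difference at 2 months that passed: BACHD-ΔN17 arrays of Lingo1 lay at 11.01 to 11.19 and wild-type arrays at 11.09 to 11.29 at that age.

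Dkkl1, a secreted relative of the Wnt inhibitors named dickkopf, was the one named gene of this group with no difference that passed at 7 months: 9.21, 9.31, 9.06 and 9.28 in BACHD-ΔN17 against 9.21, 9.13, 9.39 and 9.47 in wild-type cortex. At 11 months it read 8.28, 8.70, 8.81 and 8.33 in BACHD-ΔN17 against 9.54, 9.46, 9.57 and 9.56 in wild-type cortex, a 2.00-fold difference (interaction -0.91, SE 0.17, limma adjusted p = 0.0305). A second detected probe of Dkkl1 gave -0.71 and did not pass (limma adjusted p = 0.638 among all probes). A further probe of Dkkl1 was detected on too few arrays to be tested. The unnamed probe ILMN_1236459 is the feature in which wild-type moved more. It lay at 5.78 to 6.44 in BACHD-ΔN17 and 5.43 to 6.05 in wild-type cortex at 7 months, and at 5.13 to 5.76, below detection, in BACHD-ΔN17 and 6.45 to 7.18 in wild-type cortex at 11 months. It was at least 1.87-fold lower than wild-type at 11 months (interaction -1.78, SE 0.36, limma adjusted p = 0.0349).

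**Figure D2:**
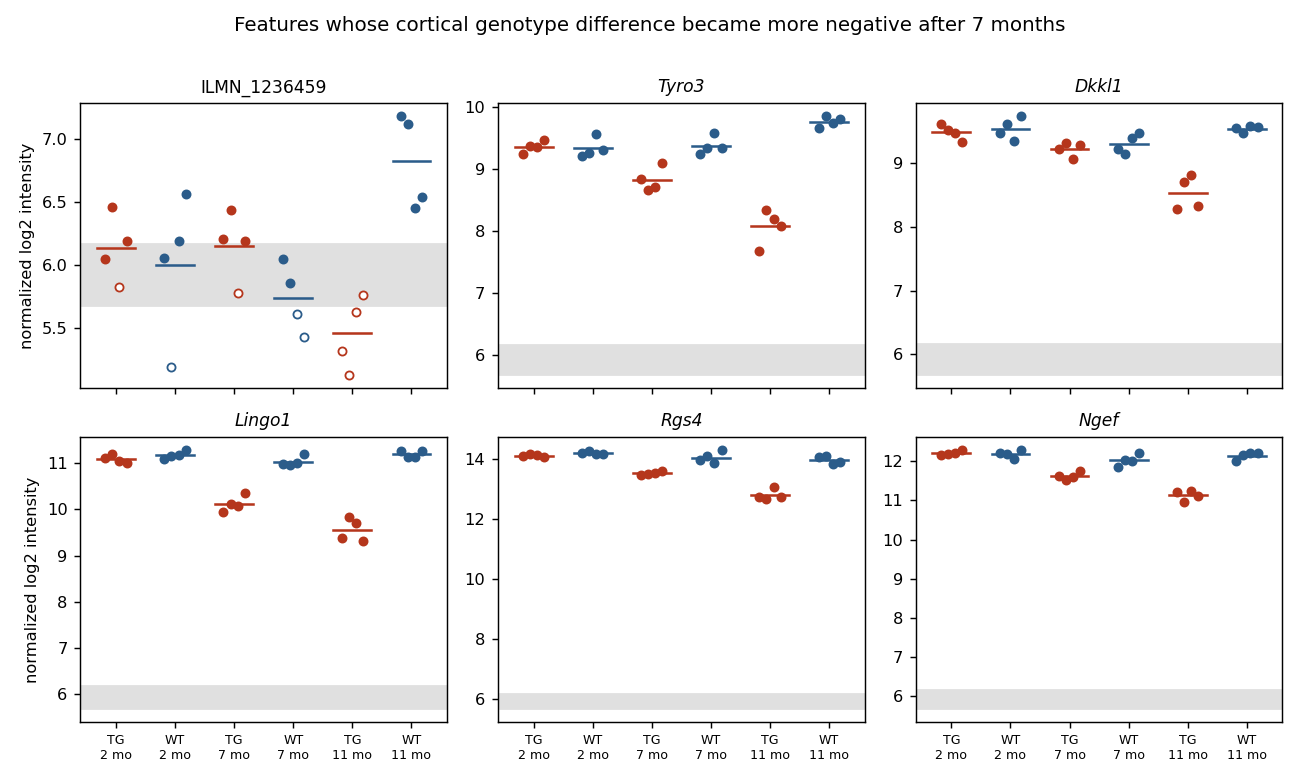
Normalized log2 intensity (vertical axis) of the 6 features whose genotype difference became more negative, on each BACHD-ΔN17 (TG, red) and wild-type (WT, blue) cortical array at 2, 7 and 11 months, with group means as lines (n = 4), open points for undetected values and detection floors in grey. Tyro3, Lingo1, Rgs4 and Ngef step down at 7 and again at 11 months in BACHD-ΔN17 cortex, whereas Dkkl1 separates at 11 months.

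How many of the 18 passed depended on which arrays entered. With the 16 arrays alone, without those at 2 months, 3 passed. The median SD within groups was 0.196 at 2, 0.193 at 7 and 0.247 at 11 months, and its part in this was not tested. All 18 interactions kept their sign with each of the 16 arrays left out in turn and in 15 of the other 16 settings, and the stricter filter, which kept 5 of the 18, gave those 5 the same sign. With 1 array left out, 4 features passed every time (ILMN_3118071, Hoxc6, Barx1 and Tyro3), and the number that passed ranged from 4 (without replicate 4 of BACHD-ΔN17 at 7 months, or replicate 1 or 4 of BACHD-ΔN17 at 11 months) to 22 (without replicate 3 of BACHD-ΔN17 at 11 months). It was 5 without replicate 3 of BACHD-ΔN17 at 7 months, replicate 1, 2 or 3 of wild-type at 7 months or replicate 2 of wild-type at 11 months, and 8 to 11 without replicate 1 of BACHD-ΔN17 at 7 months or replicate 1, 3 or 4 of wild-type at 11 months. Without the dim arrays 3 passed, ILMN_3118071, Barx1 and Hoxc6, while Rgs4 had an interaction of -0.42 (limma adjusted p = 0.577) and ILMN_1236459 one of -1.12 (limma adjusted p = 0.632). Replicate 1 of BACHD-ΔN17 at 11 months, a female on a dim array, was the highest of the 4 for 10 of the 12 features that rose. Arrays with internal numbers 1 to 32 and 33 to 48, fitted separately, gave Barx1 interactions of 2.10 and 2.69, Tyro3 -1.10 and -1.52 and Hoxb5 1.86 and 1.27. Numbers 33 to 48 held 1 BACHD-ΔN17 array at each of 7 and 11 months. In the authors' deposited log2 values, which lack background correction, the sizes were smaller for the dim genes (Hoxc6 1.34, ILMN_3118071 1.24, Hoxa7 0.45) and 16 of the 18 passed.

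**Figure D3:**
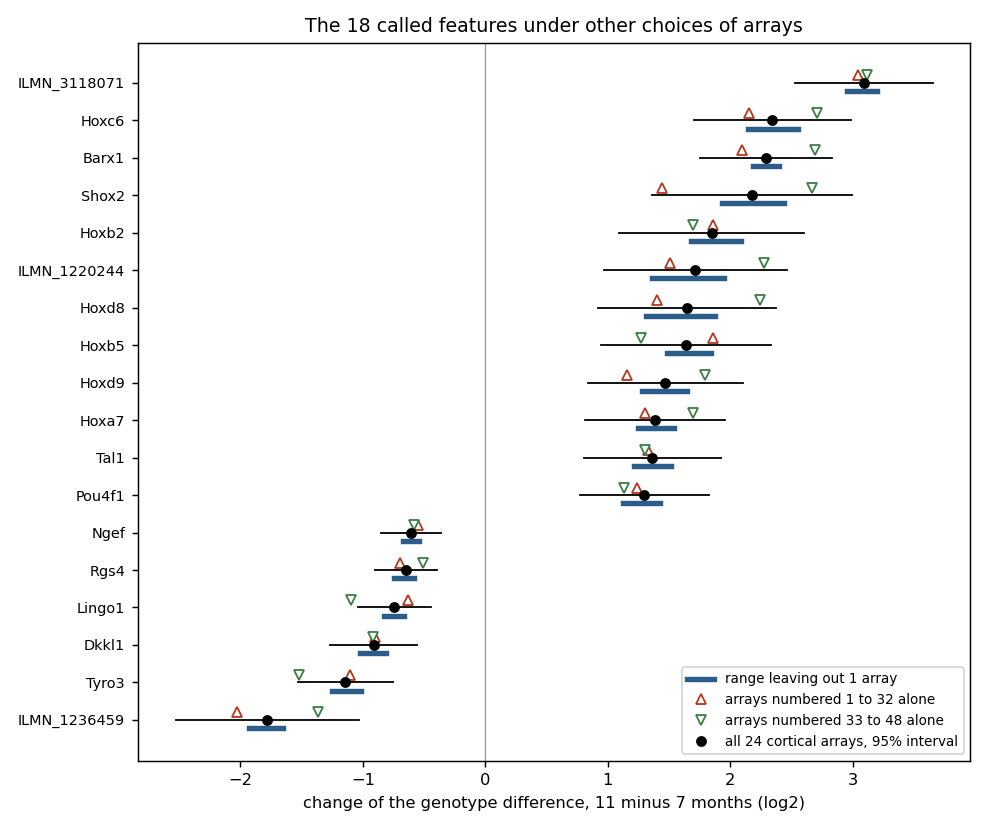
Interaction (log2, 11 minus 7 months, horizontal axis) of the 18 features, with the 95% interval from all 24 cortical arrays (black), the range when each of the 16 arrays was left out in turn (blue bar), and the values from arrays numbered 1 to 32 and 33 to 48 fitted separately (triangles, with no interval drawn). All values of a feature lie on the same side of 0.

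To ask what the remaining genotype differences did, features were chosen by the mean of their 7- and 11-month differences, whose error is unrelated to that of the interaction when groups are equal in size and spread. On that mean 865 features were higher (7.83%) and 1076 lower (9.74%) in BACHD-ΔN17 cortex by limma at an adjusted p under 0.05. Of the 865, 12 grew, 0 receded, 356 were level, meaning that the 95% interval of the interaction lay within 0.5 of 0 on the log2 scale, and 497 could not be placed. Of the 1076, 5 grew, 0 receded, 285 were level and 786 could not be placed. The 12 and 5 that grew are 17 of the 18 features described above. Of the 12, 6 met the filter only through the BACHD-ΔN17 arrays at 11 months. The level margin of 0.5 exceeds the median 7-month differences given below. A level feature can thus still have grown or shrunk relative to its size. At an unadjusted p under 0.05, 158 of the higher and 244 of the lower features grew and 3 of each receded. The fitted difference was larger at 11 months for 86.1% of the higher and 88.6% of the lower features, with a median absolute difference of 0.425 at 11 and 0.242 at 7 months for the higher ones and 0.544 at 11 and 0.304 at 7 months for the lower ones. The spread within groups was also larger at 11 months: the median SD was 0.193 at 7 and 0.247 at 11 months. The condition of equal spread was thus not met, and choice by the mean can favour features with a larger 11-month difference. The part of this in the shares above was not tested.

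Of the 196 features that passed at 7 months, a choice that favours large 7-month values, 152 had a larger fitted difference at 11 months and 44 a smaller one, 183 also passed at 11 months, and 0 changed sign. Their median growth was 0.17 on the log2 scale.

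**Figure D4:**
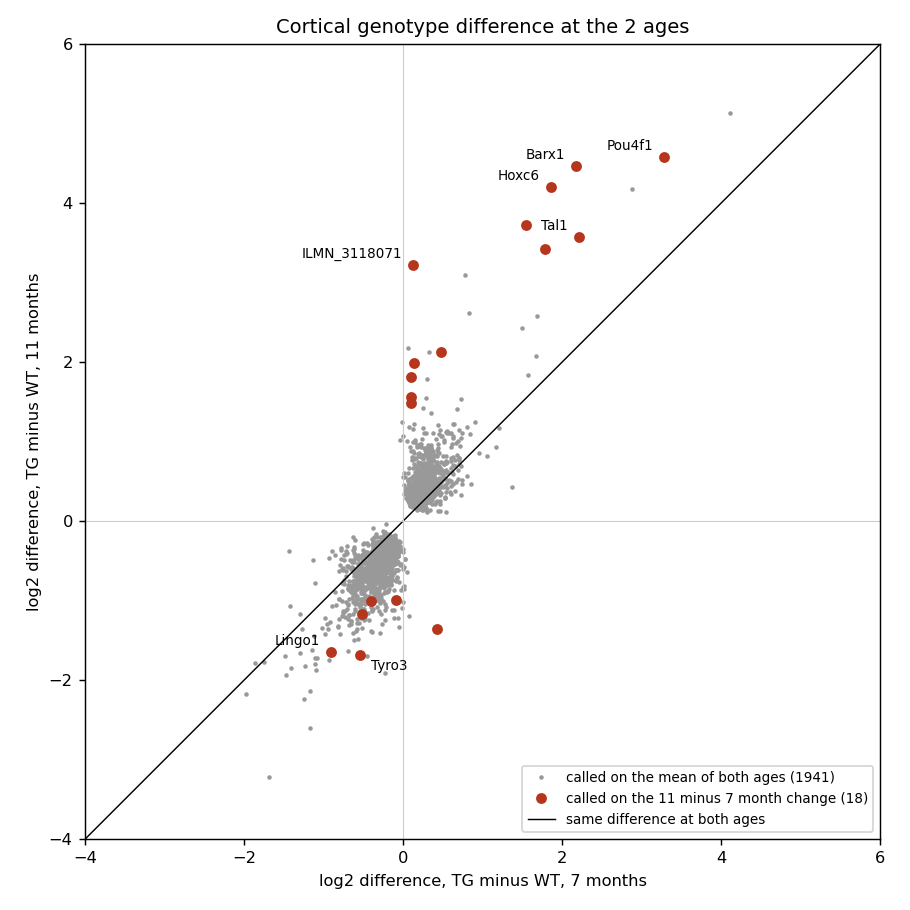
Log2 genotype difference (BACHD-ΔN17, TG, minus wild-type, WT) in cortex at 7 months (horizontal axis) and 11 months (vertical axis) for the 1941 features called on the mean of both ages (grey) and the 18 called on the interaction (red). The line marks equal differences. Most grey points lie farther from 0 at 11 months than at 7 months, and the red developmental factors lie well above the line.

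Some larger differences changed little after 7 months. Among the level features, the 5 with the largest mean difference each way are named here, chosen after their values were seen. Cbx8, a subunit of a Polycomb repressive complex, read 9.01, 8.86, 8.60 and 8.92 in BACHD-ΔN17 and 7.89, 8.29, 8.31 and 8.07 in wild-type cortex at 7 months. Its arrays at 11 months read 8.69, 8.83, 9.07 and 9.09 in BACHD-ΔN17 and 7.89, 8.16, 8.38 and 8.08 in wild-type cortex. The genotype difference was 0.71 at 7 and 0.79 at 11 months (interaction 0.09, 95% interval -0.32 to 0.50).

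Bex4, of a family of small brain proteins, was higher by 0.95 at 7 and 0.85 at 11 months (interval of the interaction -0.40 to 0.20), and Cd82, a tetraspanin, by 0.68 at 7 and 0.64 at 11 months. Echdc2, an enzyme of the enoyl-CoA hydratase family, and Itgb4, an integrin subunit, were the other level features that were higher. Among the lower ones were Slc1a2, the main glutamate transporter of astrocytes (-0.59 at 7 and -0.75 at 11 months), and Cplx2, complexin 2 of synaptic vesicle fusion (-0.58 at 7 and -0.78 at 11 months). Inf2, an actin-nucleating formin, differed by -0.85 at 7 and -0.90 at 11 months, Strip2 by -0.76 at both ages, and Nupr1, a stress-induced nuclear protein, by -0.71 at 7 and -0.57 at 11 months. All 10 passed by limma at both ages, as did 183 of 11047 features in all. A choice by a large mean with a small change favours this, so it is not further support.

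No gene passed as receding. The 6 features that receded at an unadjusted p under 0.05 are named for that reason, after their values were seen, and all had limma adjusted p of 0.587 or more. Cdhr1, a cadherin-related protein, read 7.49, 7.05, 7.78 and 8.01 in BACHD-ΔN17 against 5.59, 5.85, 6.97 and 6.44 in wild-type cortex at 7 months. At 11 months the groups overlapped, at 7.77, 8.09, 7.09 and 7.48 in BACHD-ΔN17 against 7.30, 7.26, 6.86 and 7.28 in wild-type cortex. Cpne4, a calcium-dependent membrane-binding copine, differed by 0.44 at 7 and 0.12 at 11 months, and Zc3h10, a zinc finger protein, by 0.54 at 7 and 0.11 at 11 months. On the lower side, Ecel1, a neuronal peptidase, was detected on 0 BACHD-ΔN17 and 4 wild-type arrays at 7 months and on 1 BACHD-ΔN17 and 2 wild-type arrays at 11 months. Pop5, a subunit of the RNase P complex, differed by -0.38 at 7 and -0.10 at 11 months. Pitpna, a phosphatidylinositol transfer protein, differed by -0.21 at 7 and -0.04 at 11 months. The 95% interval of the Pitpna interaction (0.0015 to 0.3446) also met the rule for level.

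The 10 largest mean differences upward were those of En2, Pou4f1, Twist1, Barx1, Hoxc6, Tal1, Shox2, Hoxb5, Wt1 and Gbx2, all transcription factors of development, and each of them had passed at 7 months. En2, a homeobox gene of the midbrain and cerebellum, read 9.65, 10.05, 9.68 and 9.55 in BACHD-ΔN17 and 5.77, 5.57, 5.23 and 5.90 in wild-type cortex at 7 months. Its 11-month arrays read 11.04, 10.43, 10.74 and 10.47 in BACHD-ΔN17 and 5.29, 5.94, 5.62 and 5.28 in wild-type cortex. The difference was 17.3-fold at 7 and at least 25.3-fold at 11 months, and its growth did not pass (interaction 1.02, SE 0.28, limma adjusted p = 0.246). The 17.3-fold rests on a wild-type mean of 5.62, below the detection floors, with 1 of 4 arrays detected. These folds are thus unlike measures. Twist1, a mesodermal helix-loop-helix factor, had an interaction of 1.29 (limma adjusted p = 0.285), Gbx2, a homeobox gene of the hindbrain border, 0.94 (0.429) and Wt1, a zinc finger factor of the kidney, 0.89 (0.387). Each of these 4 was higher on every BACHD-ΔN17 array than on every wild-type array at both ages. At 11 months the genotypes did not overlap for 14.9% of all features, and the share at 7 months was not computed. The 10 were chosen by the mean difference of these same arrays. Their separation and their passing at 7 months therefore describe them and are not further support.

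Among the lower genes, Ddit4l, an inhibitor of growth signalling, lay at 9.90 to 10.56 in BACHD-ΔN17 and 11.17 to 12.16 in wild-type cortex at 7 months and at 9.10 to 9.68 in BACHD-ΔN17 and 11.39 to 11.89 in wild-type cortex at 11 months. It was 2.37-fold lower than wild-type at 7 and 4.71-fold lower at 11 months, and the interaction of -0.99 did not pass (limma adjusted p = 0.246). Slc23a3, of the ascorbate transporter family, differed by -1.69 at 7 and -3.22 at 11 months (interaction -1.53, limma adjusted p = 0.182), with 2 of 4 BACHD-ΔN17 arrays detected at 11 months and the wild-type mean 0.93 higher at 11 than at 7 months. Gpr153, an orphan receptor, differed by -1.86 at 7 and -1.79 at 11 months, with an interaction of 0.07 and a 95% interval of -0.73 to 0.86. Mslnl, a relative of mesothelin, differed by -1.75 at 7 and -1.77 at 11 months, with an interval of -0.79 to 0.74. Sytl1, a Rab-binding protein of vesicle transport, differed by -1.98 at 7 and -2.18 at 11 months, and both Fst and Otof were below detection on all 4 BACHD-ΔN17 arrays at 11 months. Fst, the activin inhibitor follistatin, was 2.77-fold lower at 7 and at least 2.18-fold lower at 11 months, and Otof, the calcium sensor otoferlin, 2.25-fold lower at 7 and at least 2.85-fold lower at 11 months. None of these 5 passed in the interaction, and the intervals are too wide to place any of them as level.

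The 6 features next in order of p among those with a negative interaction did not pass either. Ccnd1, cyclin D1 of the cell cycle, differed by 0.01 at 7 and -0.85 at 11 months (limma adjusted p of the interaction 0.12). Cox6a2, a respiratory subunit of muscle and some neurons, differed by -0.12 at 7 and -1.12 at 11 months (limma adjusted p = 0.124). Tmem121b differed by -0.44 at 7 and -1.16 at 11 months, Adap1, a neuronal Arf regulator, by -0.01 at 7 and -0.60 at 11 months, and Epop, a partner of Polycomb complexes, by -0.54 at 7 and -1.06 at 11 months. These 5 passed as lower at 11 months (9.16% of all features did), which their choice by the interaction favours, because it contains the 11-month difference. The other, She, an adaptor protein, was detected on 0 BACHD-ΔN17 and 2 wild-type arrays at 11 months and on none at 7 months, which allows no difference at 7 months and a bound of only 1.01-fold lower at 11 months.

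Gene lists chosen for cortex were read by their counts and medians beside those over all features, for which the median genotype difference was 0.010 at 7 and 0.015 at 11 months and the median interaction 0.000. Over all features 0.498% were higher and 1.28% lower at 7 months, 6.97% higher and 9.16% lower at 11 months, and 5521 of 11047 interactions were below 0. Developmental transcription factors had a median difference of 0.24 at 7 and 1.46 at 11 months over 16 tested members of 39 on the array. Of these 16, 4 passed as higher at 7 months (0.498% of all features), 11 at 11 months (6.97%) and 6 in the interaction (0.109%), of which 4 met the filter only through the BACHD-ΔN17 arrays at 11 months. The other 23 members on the array were detected too seldom to be tested, so these counts and medians describe the tested members, and nothing is read from them about the list. The median interaction over the 16 was 0.91, and 0.42 in the authors' deposited log2 values.

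Immediate early genes, the transcription factors and effectors induced by neuronal activity, had a median of -0.21 at 7 and -0.56 at 11 months over 20 tested members. At 7 months 1 of them was lower (1.28% of all features) and at 11 months 10 (9.16%), and the interaction was below 0 for 18 of 20, but 0 passed in it. Npas4, an activity-dependent factor of synapse regulation, read 8.58, 7.88, 8.22 and 8.73 in BACHD-ΔN17 and 8.16, 7.69, 8.94 and 9.55 in wild-type cortex at 7 months, where the groups overlap. At 11 months it read 7.53, 7.46, 7.38 and 6.20 in BACHD-ΔN17 and 9.29, 9.43, 8.86 and 8.67 in wild-type cortex. The groups did not overlap there, as for 14.9% of all features (interaction -1.68, SE 0.42, limma adjusted p = 0.168). Nptx2, a secreted pentraxin of excitatory synapses, differed by -1.09 at 7 and -1.72 at 11 months, and Egr2, a zinc finger factor, by -1.18 at 7 and -2.61 at 11 months. The list's median interaction of -0.32 moved to -0.06 without the 4 dim arrays, and the part of array brightness in it was not tested.

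Other neuronal lists also held more lower genes at 11 than at 7 months, and Rgs4 was their single member that passed in the interaction. Calcium and cAMP signalling genes had a median of -0.13 at 7 and -0.30 at 11 months over 47 members, with 6 lower at 7 and 17 at 11 months and the interaction below 0 for 38. Potassium channel genes had 3 lower at 7 and 14 at 11 months of 35, glutamate receptor and scaffold genes 0 lower at 7 and 7 at 11 months of 25, and neuropeptide and neurotrophin genes 1 at 7 and 4 at 11 months of 10. Over all features too, lower calls were more frequent at 11 months (9.16%) than at 7 months (1.28%). Median interactions were -0.16 for calcium and cAMP signalling, -0.11 for potassium channels, -0.14 for glutamate receptors, -0.20 for neuropeptides and -0.02 for the 6 GABA receptor genes. Bdnf, a neuronal growth factor, lay at 9.47 to 9.99 in BACHD-ΔN17 and 10.02 to 11.07 in wild-type cortex at 7 months and at 9.14 to 9.66 in BACHD-ΔN17 and 10.07 to 10.93 in wild-type cortex at 11 months, and its interaction of -0.42 (SE 0.27) did not pass. Gabrd, a subunit of extrasynaptic GABA receptors, differed by -0.48 at 7 and -1.19 at 11 months (interaction -0.71, limma adjusted p = 0.201), and Kcnip3, a potassium channel partner, by -0.49 at 7 and -0.95 at 11 months.

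Genes that mark striatal projection neurons are also expressed in cortex at lower levels. Over the 18 tested, the median difference was 0.05 at 7 and -0.30 at 11 months. Of them, 4 were lower at 7 months (1.28% of all features) and 7 at 11 months (9.16%), with a median interaction of -0.33 and 14 below 0, and 0 passed. Without the dim arrays this median was -0.195. Ppp1r1b, the dopamine-signalling phosphoprotein DARPP-32, differed by -0.69 at 7 and -1.05 at 11 months, Pdyn, the dynorphin precursor, by -1.13 at 7 and -1.45 at 11 months, and Scn4b, a sodium channel subunit, by -0.61 at 7 and -0.94 at 11 months. Pde10a, a phosphodiesterase, had no difference that passed at either age (-0.15 at 7, 0.20 at 11 months). Drd2, the D2 dopamine receptor, is dim in cortex and had an interaction of -1.34 that did not pass (limma adjusted p = 0.145).

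Reactive astrocyte and stress-response genes had medians above that of all features at 11 months. Reactive astrocyte genes had a median of 0.03 at 7 and 0.54 at 11 months over 17 members, with 0 higher at 7 and 7 higher and 1 lower at 11 months, where 6.97% of all features were higher and 9.16% lower, and 0 passed in the interaction. Vim, an intermediate filament, differed by 0.66 at 7 and 0.98 at 11 months, and Serpina3n, a protease inhibitor, by 0.32 at 7 and 0.54 at 11 months. S100a6, a calcium-binding protein, went the other way, by -0.04 at 7 and -0.55 at 11 months (interaction -0.51, limma adjusted p = 0.403). Gfap, the standard astrocyte filament, differed by -0.26 at 7 and 0.10 at 11 months and did not pass at either age. Glucocorticoid and FoxO targets had a median of 0.06 at 7 and 0.33 at 11 months, with 6 of 18 higher at 11 months (6.97% of all features) and 0 passing in the interaction. Their median interaction of 0.23 was 0.11 in arrays numbered 1 to 32 and 0.63 in those numbered 33 to 48, and that of reactive astrocyte genes, 0.36, was 0.17 in numbers 1 to 32. Plin4, a lipid droplet coat protein, read 8.97, 7.47, 8.42 and 6.01 in BACHD-ΔN17 and 7.70, 6.78, 7.94 and 5.32 in wild-type cortex at 7 months, and 9.81, 8.22, 8.05 and 9.60 in BACHD-ΔN17 and 6.24, 5.22, 5.93 and 5.89 in wild-type cortex at 11 months. The groups overlapped at 7 months and separated at 11 months, where 14.9% of all features did not overlap. The interaction of 2.32 had an SE of 0.73 and did not pass (limma adjusted p = 0.415).

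Microglial markers had a median of -0.05 at 7 and -0.22 at 11 months over 25 members, and Lyz2, lysozyme of myeloid cells, did not pass at either age. Markers of cortical excitatory neurons had medians of -0.14 at both ages over 20 members, of GABA interneurons -0.22 at 7 and -0.32 at 11 months over 15, of astrocytes -0.22 at 7 and -0.33 at 11 months over 15, and of myelin 0.03 at 7 and -0.02 at 11 months over 19. Lower at 11 months, where 9.16% of all features were lower, were 6 excitatory, 8 interneuron, 4 astrocyte, 3 microglial and 4 myelin markers, and the microglial share lay near that of all features. Higher at 11 months, where 6.97% of all features were higher, were 2 excitatory, 1 interneuron, 0 astrocyte, 1 microglial and 0 myelin markers. These small counts are not read as a result about the lists. Among these markers was Rprm, a cell cycle inhibitor on the excitatory list, which differed by 0.80 at 7 and 0.56 at 11 months. For these 5 lists 0 members passed in the interaction. The median level over the excitatory markers on each array was 9.79 to 10.01 in BACHD-ΔN17 and 9.98 to 10.20 in wild-type cortex at 7 months, and 9.81 to 10.26 in BACHD-ΔN17 and 10.14 to 10.18 in wild-type cortex at 11 months. The part of cell composition in the results was not tested. The other lists had median interactions of 0.15 (interferon response, 19 members), 0.04 (chaperones, 25), -0.09 (cholesterol synthesis, 18), 0.07 (respiratory chain, 46), -0.21 (oligodendrocyte precursors, 4), -0.05 (vessel cells, 13), 0.30 (choroid plexus, 2) and -0.01 (red blood cells, 4), and 0 of their members passed.

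**Figure D5:**
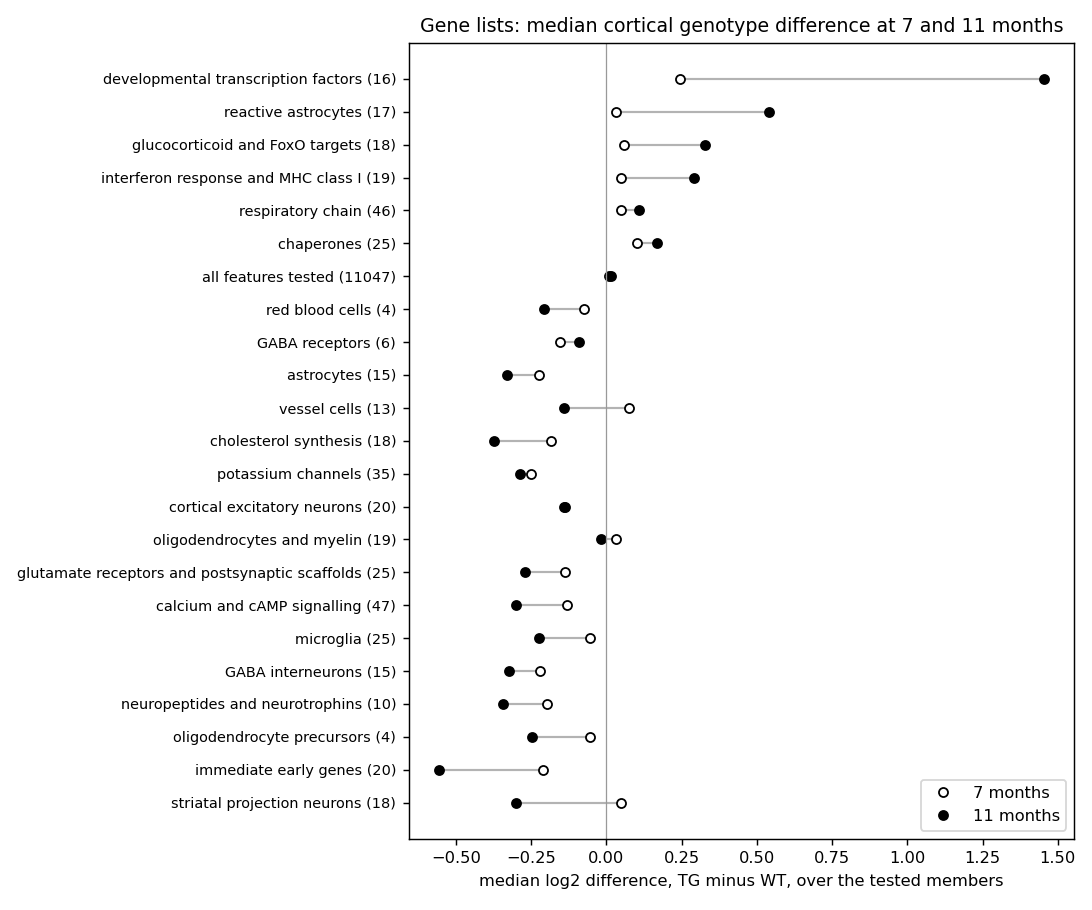
Median log2 genotype difference (BACHD-ΔN17, TG, minus wild-type, WT; horizontal axis) over the tested members of each gene list at 7 months (open) and 11 months (filled), with the number of members in brackets, for lists with at least 4 tested members in order of their median interaction. Developmental transcription factors stand farthest to the right at 11 months (1.46) and immediate early genes farthest to the left (-0.56). Of the 16 tested developmental members, 4 met the filter only through the BACHD-ΔN17 arrays at 11 months. The place of that list therefore describes its tested members alone.

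In striatum of the same mice, the same interaction called 0 of 11225 features by limma (0.00%, 781 at an unadjusted p under 0.05). The difference between the cortical and the striatal interaction, tested on the within-mouse difference of the regions, passed for 7 features (0.0634%): Hoxc6, Hoxa7, Hoxd9, Barx1, Pou4f1, ILMN_3118071 and 6030458C11Rik, an uncharacterised gene. Hoxc6 was already at least 2.85-fold higher in BACHD-ΔN17 than in wild-type striatum at 7 months and at least 3.77-fold higher at 11 months, and its level in BACHD-ΔN17 striatum was 1.22-fold higher at 11 than at 7 months, against 4.78-fold in cortex. Its fitted interaction, with wild-type below detection in both regions, was 0.34 in striatum and 2.34 in cortex (difference 2.01, SE 0.30, limma adjusted p = 0.00648). For Pou4f1 and ILMN_3118071 the striatal arrays at both ages lay between 4.73 and 5.39 in both genotypes. Of these 7, Hoxa7, Hoxd9, Barx1, Pou4f1 and ILMN_3118071 were too seldom detected in striatum to enter the striatal test, so their region difference sets the cortical interaction against background readings and shows no striatal value. The gene 6030458C11Rik, named because it passed here, did not pass in cortex alone (interaction 1.53, limma adjusted p = 0.422). Its striatal interaction went the other way and did not pass either (-1.52, limma adjusted p = 0.520). Among the lower genes, the striatal interaction was -0.43 for Rgs4 and -0.36 for Tyro3. Cortex minus striatum was -0.22 for Rgs4 (SE 0.18), -0.78 for Tyro3 (SE 0.26), -0.33 for Lingo1 (SE 0.19) and -0.30 for Ngef (SE 0.18), and none of these 4 passed (limma adjusted p from 0.614 to 0.834), which does not show that the regions act alike.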

How the data were processed

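The authors deposited bead intensities per probe on a linear scale, not normalized, with a detection p-value beside each intensity, per the file headers. The authors' deposited log2 values were found, by setting them against those intensities, to be quantile-normalized log2 intensities without background correction (48 of 48 columns). The scanner software is not given in the sources used here.

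Intensities of all 48 arrays were background-corrected and quantile-normalized with neqc in limma 3.58.1 (R 4.3.3, offset 16). Of 25697 probes, 23978 carry a gene symbol and 1719 none. The brightest probe stood for each gene, giving 18312 features, and 11047 with a detection p under 0.05 on at least 4 cortical arrays were tested. One limma model (6 cortical group means and sex, 24 arrays, trended variances) gave all cortical contrasts, two-sided, with Benjamini-Hochberg adjustment at 0.05. The fit was tested on simulated data. The number of arrays limits the precision.

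The gene groups, lists and named genes were chosen with earlier results of these data known. Named were up to 12 called features each way on the interaction, filled up by smallest p, the 10 largest each way on the mean of both ages, 3 per list, and a few set genes. Groups, ages and sexes come from the labels. Labelled replicate numbers did not pair the samples: 7-month groups share 2 numbers, with correlations of -0.233 and -0.218 between the deviations of same-numbered arrays. The text numbers replicates 1 to 4 within each group in accession order. Alternatives changed normalization, filter, covariates, array sets and probe choice, and left out each array in turn. Promoter windows are RefSeq's (GRCm38.p6), matched by symbol.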

Additional observations from a re-analysis of the deposited data

Results flagged for a closer look

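The genotype difference in cortex changed between 7 and 11 months for 18 features by limma, and this change differed between cortex and striatum for 7 features. Of these 7, Hoxa7, Hoxd9, Barx1, Pou4f1 and ILMN_3118071 lay at or near background in striatum, so for them the difference sets the cortical interaction against background readings. Among the 72 groups of 4 arrays checked for the 18 features, 3 held an array far from the other 3, where chance flags about 1 in 20 groups. Pou4f1 read 9.92 on replicate 1 of BACHD-ΔN17 at 11 months, a dim array, and 9.29 to 9.39 on the others. Hoxd9 read 5.52 on replicate 2 of wild-type at 11 months and 4.94 to 4.97 on the others, all below detection. Hoxb5 read 5.37 on replicate 3 of wild-type at 7 months and 5.56 to 5.59 on the others, all below detection.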

How the results depend on the processing

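The interaction in cortex gave 18 features, and 4 with scale normalization, 1 with detection required on all 16 arrays, 3 with the 16 arrays alone, 2 with numbers 1 to 32 alone, 0 with numbers 33 to 48 alone and 3 without the dim arrays. Leaving out 1 array gave 4 to 22. Of the genes called on the mean, 17 grew: 4, 1, 3, 2, 0 and 3 in the same 6 settings, and 4 to 20 with 1 array left out, while 0 receded each time. Level genes numbered 641, and 1246 in the authors' log2 values, 7 with scale normalization, 972 with array weights, 158 with numbers 1 to 32, 43 with numbers 33 to 48, 300 without the dim arrays, 75 with a margin of 0.3, 1616 with a margin of 1 and 478 to 620 with 1 array left out. The 11-month difference gave 1782 features, and 710 with scale normalization, 357 with numbers 33 to 48 and 703 without the dim arrays. The 7-month difference gave 196, and 64 with scale normalization, 580 with array weights, 307 with both number ranges as a factor, 71 with numbers 1 to 32 and 16 with numbers 33 to 48. The mean gave 1941, and 872 with scale normalization, 1172 with numbers 1 to 32 and 629 with numbers 33 to 48. Cortex minus striatum gave 7, and 2 with scale normalization, 1 with eights of array numbers as a factor, 2 without the dim arrays and 2 to 6 with 1 array left out. The striatal interaction gave 0, and 0 to 1 with 1 array left out (1 without replicate 4 of BACHD-ΔN17 at 11 months). Scale normalization moved the median interaction of all features by -0.058. The cause of these changes was not tested, beyond the smaller number of arrays or features in some settings.

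With the labelled replicate number as a replicate block, the interaction gave 2 features, the 11-month difference 646, growth 2, level genes 252 and cortex minus striatum 1. No interaction of the 18 changed sign. The 4 arrays of each group and signals near the detection floor limit the size of the changes of the developmental factors.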
